A study of Mus musculus with 12 samples.

Results

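Mab21l2, the sine oculis homeobox genes Six3, Six4 and Six5, the eyes absent genes Eya1, Eya2, Eya3 and Eya4, and Pax6 were examined in mouse epiblast stem cells (EpiSCs) given an activator of Wnt signalling, an inhibitor of it, or both. These 9 genes are all the members listed, each was read by 1 array probe annotated to it alone, and they stand among 19938 genes tested. They were chosen with earlier results of these arrays known: Mab21l2, Six4, Six5 and Eya1 entered as genes that fell, and their values below are therefore a description, given without p-values. Where a call is named for them, it is likewise a description and no support for a fall. The other 5 members entered as relatives of these genes, and tests are given for them.

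EpiSCs, here of genetic background 129, are pluripotent and are derived from the epiblast of the implanted embryo. All 12 samples, untreated ones included, were kept without serum for 12 h, although the recorded growth medium holds 10% serum. They formed 4 groups of 3 arrays: untreated cells, cells given CHIR99021 (3 µM, 2 h), those given XAV939 (2 µM), and a combination group that received each at the same dose. CHIR99021 inhibits the kinase GSK3 and so stabilises beta-catenin, whereas XAV939 inhibits tankyrase, which stabilises Axin and promotes loss of beta-catenin. The time with XAV939 is 2 h in the sample labels and 4 h in the design text, and which holds is unknown. Whether replicates are separate cultures is not stated. The p-values set a difference of means against the spread within groups of these arrays, and that spread may be only technical. In RNA from whole cultures, fewer cells expressing a gene and less RNA per cell cannot be told apart.

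Sine oculis homeobox proteins bind DNA through a homeodomain, and EYA proteins, which have no DNA-binding domain of their own, join them as co-activators and also act as phosphatases. Together with PAX factors such as Pax6 they form a network, first worked out in the fly eye, that acts in the eye, cranial placodes, kidney and skeletal muscle of vertebrates. Mab21l2, the mouse relative of the worm gene mab-21, is needed for formation of the eye. Wnt/beta-catenin signalling restrains anterior neural and eye fates in the embryo, and Six3 represses Wnt genes in the mouse forebrain.

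The windows upstream of 3 genes that fell with CHIR99021 are shown because they are where a TCF/LEF site or a site for sine oculis proteins would first be looked for. The sequences are the 250 bases before the annotated start on the strand of the gene, from RefSeq (GRCm38.p6), in which 7 of the 9 members matched (not Eya1 or Eya2). Capitals mark matches, on either strand, to TCF/LEF, searched as CTTTGAA with its variants CTTTGAT and also CTTTGTA and lastly CTTTGTT, or to MEF3, a motif bound by sine oculis proteins, searched as TCAGGTTTC.
Mab21l2, chr3:86548284-86548533, minus strand: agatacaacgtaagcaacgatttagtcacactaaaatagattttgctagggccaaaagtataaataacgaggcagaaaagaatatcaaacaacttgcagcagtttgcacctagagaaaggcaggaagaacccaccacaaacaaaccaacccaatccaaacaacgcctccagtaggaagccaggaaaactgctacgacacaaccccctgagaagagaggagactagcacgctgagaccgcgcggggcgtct
Six4, chr12:73113246-73113495, minus strand: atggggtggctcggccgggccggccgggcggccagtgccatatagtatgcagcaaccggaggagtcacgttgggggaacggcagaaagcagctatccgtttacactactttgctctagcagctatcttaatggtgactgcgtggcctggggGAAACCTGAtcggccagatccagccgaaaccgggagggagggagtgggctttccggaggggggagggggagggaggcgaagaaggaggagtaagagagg
Six5, chr7:19094294-19094543, plus strand: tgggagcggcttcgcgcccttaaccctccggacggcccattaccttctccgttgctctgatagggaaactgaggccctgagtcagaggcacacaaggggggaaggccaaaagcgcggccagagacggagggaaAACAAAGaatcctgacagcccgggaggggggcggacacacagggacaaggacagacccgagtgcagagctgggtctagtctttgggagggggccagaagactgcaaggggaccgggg

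The Mab21l2 window held neither motif. The Six5 window held 1 TCF/LEF match, whose first base lies at -117 from the start, and Eya3 had the other such match among the members, at -235. Of 32851 promoter windows of this length, 14.8% held a TCF/LEF match. The Six4 window shown held 1 MEF3 match at -99, which 0.387% of all windows held. The second annotated start of Six4 and the windows of Six3, Eya4 and Pax6 held no match to either motif. A match is a run of letters and not a measured site, and no member's window held matches to both motifs.

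Values are log2 expression as deposited, and a change is a difference of group means on that scale with its standard error (SE) from limma, a linear model fitted to all 12 arrays. A gene was called at a Benjamini-Hochberg adjusted p under 0.05 over all 19938 genes. Background was gauged from 1190 olfactory and vomeronasal receptor genes, whose mean levels had a 95th percentile of 4.93. Mab21l2, Six4, Eya1, Eya3 and Pax6 were above it on all 12 arrays. Eya4 averaged 4.98 over the arrays, and was above it on 9 of them. Six5 (4.82), Six3 (4.77) and Eya2 (4.38) averaged below it, so values of these 3 may lie close to the floor of their probes. All 9 EpiSC markers averaged above background, among them Pou5f1 at 11.5 and Sox2 at 11.2, which embryonic stem cells also express, and Fgf5, a gene of the primed state, at 8.16. A free-text label calls the cells embryonic stem cells, and of 7 naive markers 4 averaged above background, Tfcp2l1 at 6.29, Klf2 at 5.54, Tbx3 at 5.05 and Klf4 at 4.97, while Zfp42 at 4.59, Esrrb at 4.43 and Dppa3 at 4.56 did not. Above background were also 6 of 6 neural, 3 of 5 endoderm, 2 of 6 fibroblast, 1 of 4 muscle and 0 of 4 trophoblast markers. Of the trophoblast markers, Cdx2, which also acts in the posterior embryo, rose with CHIR99021 by 0.46 (SE 0.09, limma adjusted p = 0.0461) at a mean level of 4.51. Of 10 known Wnt/beta-catenin targets, 6 were called higher and 0 lower with CHIR99021, where 0.421% of all genes were called in either direction. Axin2 was among them, with a change of 1.06 (SE 0.10), and so was Sp5, whose mean level of 4.66 is below background. This list was chosen with earlier results of these arrays known, so the count is a description and no independent check of the treatment.

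**Figure D1:**
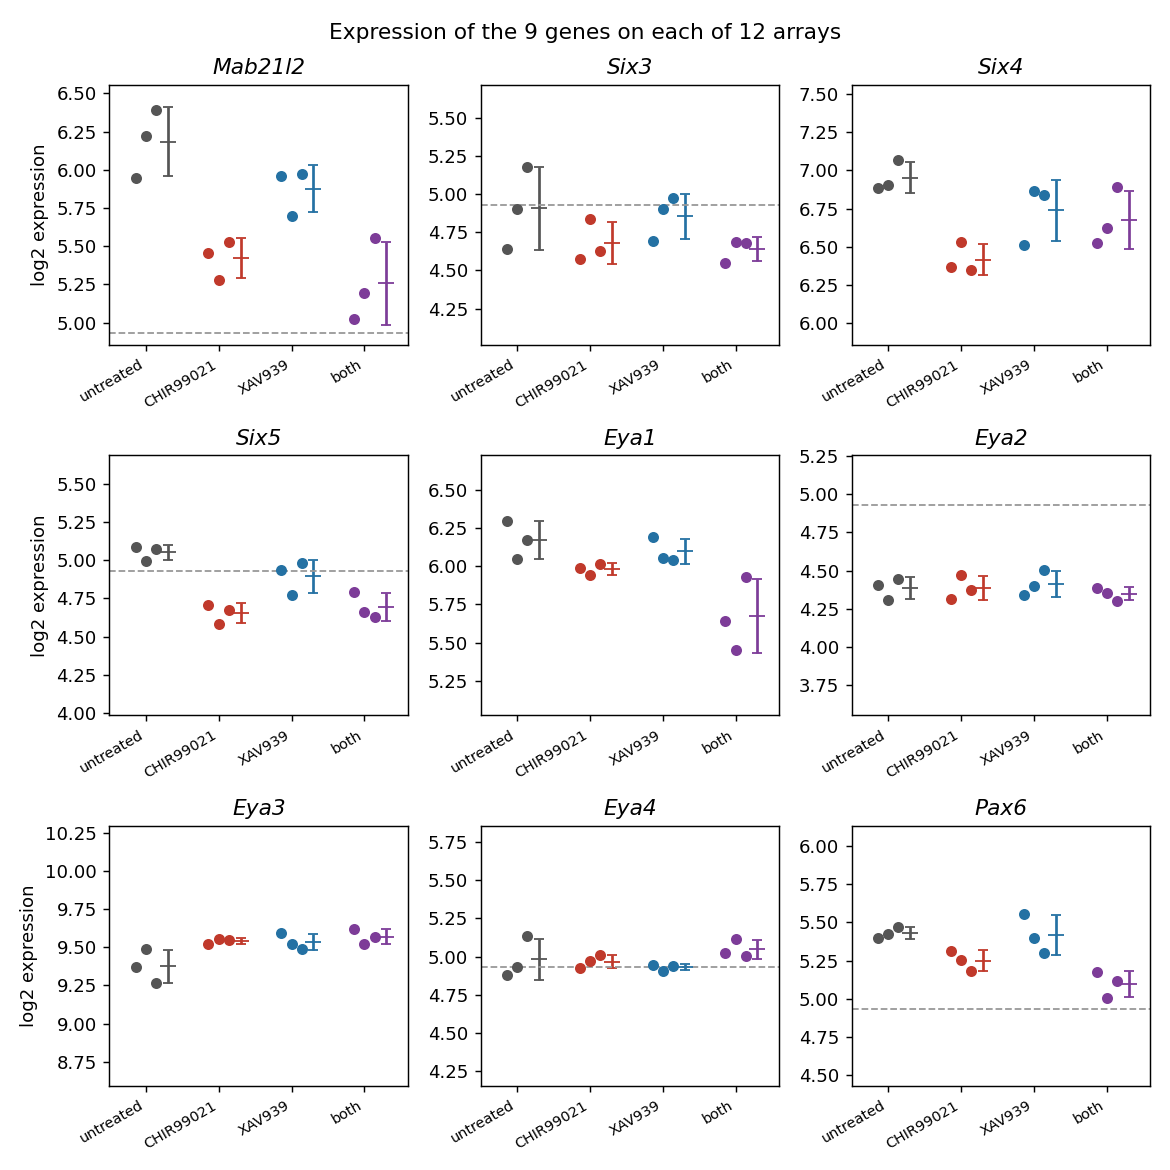
Log2 expression of each of the 9 genes on the 12 arrays, by group. Points are single arrays, the bar beside them is the group mean ± SD (n = 3), the dashed line is the background measure of 4.93 where it falls within a panel, and each panel spans the same range of log2 units. Mab21l2 is lowest in the 6 arrays with CHIR99021, Six5 is above the line on 3 untreated and 2 XAV939 arrays, and Eya2 is below it on every array.

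Mab21l2 fell with CHIR99021, alone and together with XAV939. Untreated arrays read 5.94, 6.22 and 6.39, CHIR99021 arrays 5.46, 5.28 and 5.53, XAV939 arrays 5.96, 5.70 and 5.97, and arrays with both compounds 5.02, 5.20 and 5.55. All 6 arrays with CHIR99021 lay below all 6 without it, while the untreated and XAV939 arrays overlapped, as did those with CHIR99021 alone and with both. The mean went from 6.18 ± 0.22 (SD, n = 3) untreated to 5.42 ± 0.13 with CHIR99021, a change of -0.76 (SE 0.13), or a level 1.70-fold lower. With both compounds it was 5.26 ± 0.27, a change of -0.93 (SE 0.13) from untreated and 1.90-fold lower. XAV939 alone gave 5.88 ± 0.15, a change of -0.31 with a 95% confidence interval from -0.59 to -0.03, which was not called. Against XAV939 alone, both compounds gave a change of -0.62 (95% interval -0.90 to -0.34), which was not called over all genes.

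Six4, a homeodomain factor that acts in muscle, fell with CHIR99021 alone. It read 6.88, 6.91 and 7.07 untreated and 6.37, 6.53 and 6.35 with CHIR99021, a change of -0.54 (SE 0.11), 1.45-fold lower. XAV939 arrays read 6.51, 6.86 and 6.84, and arrays with both compounds 6.52, 6.62 and 6.89. The untreated arrays lay above all 3 CHIR99021 arrays and all 3 XAV939 arrays, but overlapped those with both compounds by the single array at 6.89. With both compounds the change from untreated was -0.28 (95% interval -0.51 to -0.05) and was not called, and against XAV939 alone it was -0.06 (95% interval -0.29 to 0.17). Unlike Mab21l2, Six4 therefore had its lowest mean with CHIR99021 alone, 6.42 ± 0.10, and not with both compounds, 6.68 ± 0.19. The interaction, which is the change with CHIR99021 in the presence of XAV939 minus that in its absence, was 0.48 (SE 0.15) and was not called.

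Six5, a homeodomain gene that lies next to the myotonic dystrophy kinase gene Dmpk, fell with CHIR99021 and with both compounds, from a level near background. It read 5.09, 4.99 and 5.07 untreated, 4.71, 4.58 and 4.68 with CHIR99021, 4.93, 4.77 and 4.98 with XAV939, and 4.80, 4.66 and 4.63 with both. The untreated arrays lay above all 9 treated arrays, and those with CHIR99021 alone and with both overlapped. The change was -0.39 (SE 0.08) with CHIR99021 and -0.36 (SE 0.08) with both compounds, and all 6 of those arrays lay below the background measure. XAV939 gave -0.16 (95% interval -0.32 to 0.01).

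Eya1, a co-activator of sine oculis proteins that is mutated in human branchio-oto-renal syndrome, fell with both compounds against untreated and was called in no other comparison. It read 6.30, 6.05 and 6.17 untreated, 5.99, 5.94 and 6.02 with CHIR99021, 6.19, 6.06 and 6.04 with XAV939, and 5.64, 5.45 and 5.93 with both. The 3 arrays with both compounds lay below the other 9, and the 3 with CHIR99021 alone lay between them and the 6 arrays without CHIR99021. With both compounds the change was -0.50 (SE 0.10), 1.41-fold lower, with CHIR99021 -0.19 (95% interval -0.41 to 0.03) and with XAV939 -0.08 (95% interval -0.30 to 0.14). Both compounds against CHIR99021 alone gave -0.31 (SE 0.10), which was not called.

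**Figure D2:**
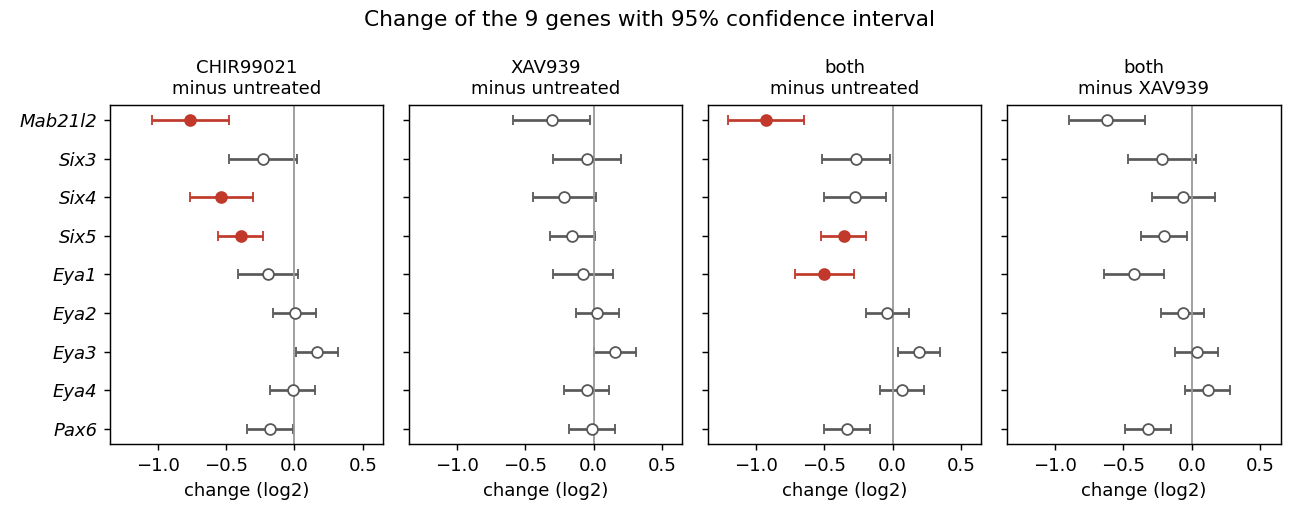
Change in log2 expression of the 9 genes in 4 comparisons. Points are differences of group means, bars are 95% confidence intervals from limma, and filled red points are called at an adjusted p under 0.05 over all genes. Filled points are Mab21l2, Six4 and Six5 with CHIR99021, and Mab21l2, Six5 and Eya1 with both compounds against untreated, all below 0. These genes were chosen for falling on these arrays, so their filling is a description and no test.

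Pax6, a paired-box factor required for the eye and active in neural progenitors, stood just outside the genes that fell. It read 5.40, 5.42 and 5.47 untreated, 5.32, 5.25 and 5.18 with CHIR99021, 5.56, 5.40 and 5.30 with XAV939, and 5.17, 5.004 and 5.11 with both. The arrays with both compounds lay below the other 9, and those with CHIR99021 lay below the untreated ones. The change was -0.33 (SE 0.08) with both compounds against untreated and did not pass (limma adjusted p = 0.0539), against XAV939 it was -0.32 (SE 0.08, limma adjusted p = 0.1405), and with CHIR99021 alone -0.18 (95% interval -0.35 to -0.01, limma adjusted p = 0.4405). Among the members called with both compounds against untreated, the smallest change was that of Six5 at -0.36. The nearest uncalled members were Pax6 at -0.33 and Six4 at -0.28. With both compounds against untreated, Pax6 was called in only 2 of the 21 alternatives that tested it, with changes of -0.33 each. These were array weights (limma adjusted p = 0.0347) and leaving out genes below the background measure (limma adjusted p = 0.0345).

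Eya3, the most widely expressed of the EYA genes in adult tissues, went the other way without passing the test. It read 9.37, 9.49 and 9.27 untreated, 9.52, 9.56 and 9.55 with CHIR99021, 9.59, 9.52 and 9.49 with XAV939, and 9.62, 9.52 and 9.56 with both. All 9 treated arrays lay above the 3 untreated ones, the closest pair being 9.4882 with XAV939 and 9.4865 untreated, and the treated groups overlapped each other. The changes from untreated were 0.17 (limma adjusted p = 0.435), 0.16 (adjusted p = 0.436) and 0.19 (adjusted p = 0.169), each with an SE of 0.07, and these 3 comparisons share the untreated arrays.

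Six3, the forebrain and eye homeodomain gene, had a change of -0.23 with CHIR99021 (95% interval -0.48 to 0.02, limma adjusted p = 0.531) and of -0.27 with both compounds (95% interval -0.52 to -0.02, adjusted p = 0.234). Its untreated arrays read 4.64, 4.90 and 5.18, and overlapped the CHIR99021 arrays at 4.57, 4.83 and 4.63. Eya2 kept between 4.30 and 4.50 on the 12 arrays, below background throughout, with a change of 0.00 (95% interval -0.16 to 0.16) with CHIR99021. Eya4, known for its role in hearing, had changes of -0.01 with CHIR99021 (95% interval -0.18 to 0.15) and 0.07 with both compounds (95% interval -0.10 to 0.23). Against XAV939 alone its 3 arrays with both compounds, 5.02, 5.12 and 5.01, lay above those at 4.95, 4.91 and 4.94, a change of 0.12 that did not pass (limma adjusted p = 0.663).

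Counted together, 3 of the 9 genes were called with CHIR99021 against untreated, all lower, where 0.421% of all genes were called and 0.166% called lower. With both compounds against untreated 3 were called, again all lower, where 1.13% of all genes were called and 0.311% called lower, and Mab21l2 and Six5 were in both counts. The members were chosen on these contrasts, so nothing is read from the counts. Groups did not overlap, with the treated arrays lower, for 5 members with CHIR99021 (8.25% of all genes), 2 with XAV939 (8.17%) and 4 with both compounds (12.0%). With the treated arrays higher the count was 1, Eya3, in each of these (8.09%, 9.48% and 13.0% of all genes). With both compounds against XAV939, 4 were lower without overlap (7.32%) and 1, Eya4, higher (6.94%), and against CHIR99021 2 were lower (7.18%). The median change of the 9 was -0.19 with CHIR99021 and -0.28 with both compounds, beside -0.01 over all genes in each. These medians include the genes chosen for falling, which pull them down by choice, so nothing is read from them. Limma called 0 members with XAV939 against untreated and in the interaction, where 0.0% of all genes were called, and 0 with both compounds against XAV939 (0.236%) or CHIR99021 (0.0251%). Of the members not chosen for falling, Eya3 and Pax6 had an unadjusted limma p under 0.05 with CHIR99021 against untreated. With both compounds against untreated, Six3, Eya3 and Pax6 had it, and the share of all genes is not given for these comparisons. Of the same members, Eya3 alone had it with XAV939 (11.2% of all genes). Pax6 alone had it with both against XAV939 (9.69%). None had it with both against CHIR99021 (11%) or in the interaction (4.94%), and nothing is read from this either.

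The counts rested on few arrays. With CHIR99021 against untreated, no member was called without untreated replicate 2, untreated replicate 3 or CHIR99021 replicate 2, and 1 was called without untreated replicate 1, CHIR99021 replicate 1, CHIR99021 replicate 3 or replicate 2 of both compounds. With both compounds the count was 0 without replicate 2 of both and 1 without untreated replicate 1, 2 or 3 or replicate 1 of both. Against XAV939 the count was 2, Mab21l2 and Eya1, without replicate 3 of both. The changes of the genes chosen for falling are given over all alternatives as a description. That of Mab21l2 lay between -0.88 and -0.66 with CHIR99021 and between -1.07 and -0.81 with both. Six4 lay between -0.59 and -0.48 with CHIR99021. Six5 lay between -0.42 and -0.36 with CHIR99021 and between -0.41 and -0.30 with both. Eya1 lay between -0.63 and -0.39 with both.

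The change with CHIR99021 is given here a second time with XAV939 present in both groups. These arrays are not in the first contrast, but all 4 groups were in view when Mab21l2, Six4, Six5 and Eya1 were chosen, so the pair of values is a description and no independent reading. Mab21l2 had -0.76 without and -0.62 with XAV939, and Eya1 had -0.19 and -0.42. Pax6 had -0.18 and -0.32, Six3 -0.23 and -0.22, and Six5 -0.39 and -0.20. Six4 had -0.54 without XAV939 and -0.06 with it. Of the 9 genes, 7 had a change below 0 in each contrast, the 4 genes chosen for falling among them, where 51.9% and 51.4% of all genes did, and nothing is read from these counts. No difference between the contrasts was called in the interaction test for any of the 9 genes.

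**Figure D3:**
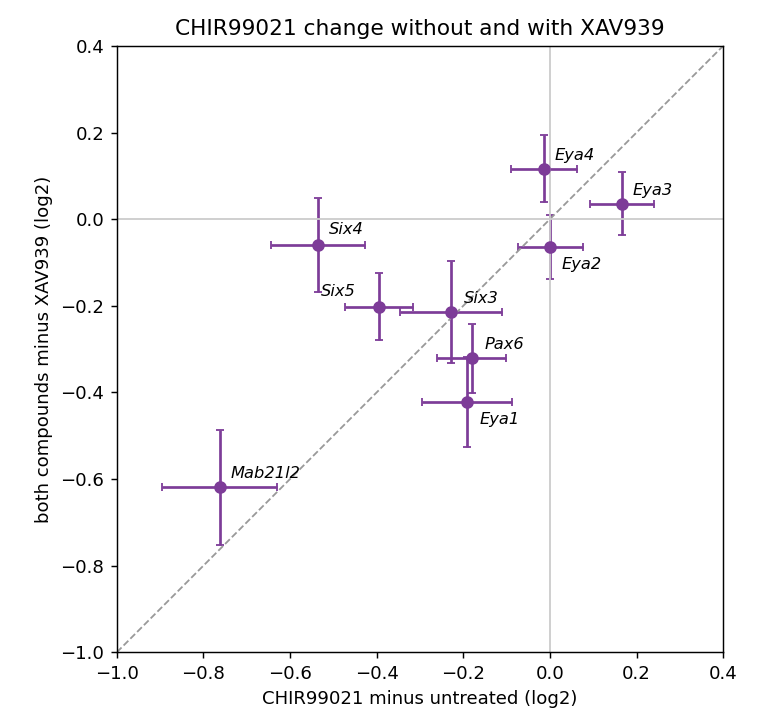
Change with CHIR99021 against untreated (horizontal axis) and change with both compounds against XAV939 alone (vertical axis), in log2 units, for the 9 genes. Bars are 1 SE from limma and the dashed line marks equal changes. Mab21l2 is farthest below 0 on both axes (-0.76 and -0.62), while Six4 is at -0.54 on the horizontal axis and -0.06 on the vertical one.

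Addition of XAV939 to CHIR99021 returned no member to its untreated level by a called change. Against CHIR99021 alone, both compounds gave changes of 0.26 for Six4 (95% interval 0.03 to 0.49) and 0.04 for Six5 (95% interval -0.13 to 0.20). Mab21l2 had -0.16 in this comparison (95% interval -0.45 to 0.12), and Pax6 -0.15 (95% interval -0.32 to 0.02, limma adjusted p = 0.499). Axin2, the Wnt target named above, had -0.57 in the same comparison (limma adjusted p = 0.0788).

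Other measures were compared between the groups. The SD of all values on an array averaged 2.16 ± 0.02 (n = 3) in untreated samples and 2.20 ± 0.01 with both compounds, and untreated replicate 3, at 2.14 the array of lowest spread, had the highest untreated value of Mab21l2, Six3, Six4, Eya2, Eya4 and Pax6 and the lowest of Eya3. Without that array and XAV939 replicate 2, the change with CHIR99021 was -0.66 for Mab21l2, -0.48 for Six4 and -0.38 for Six5, and no member was called. The log2 of the summed level of 7 naive pluripotency markers, 4 of which averaged above background, ran from 7.92 to 7.94 untreated, from 7.89 to 7.99 with XAV939, from 8.09 to 8.23 with CHIR99021 and from 8.05 to 8.11 with both. For 6 neural markers, all above background, it ran from 8.56 to 8.65 untreated, from 8.38 to 8.59 with CHIR99021, from 8.62 to 8.68 with XAV939 and from 8.60 to 8.69 with both, and untreated arrays overlapped each treated group. For 6 fibroblast markers, 2 above background, it ran from 8.25 to 8.30 untreated, from 8.13 to 8.20 with CHIR99021, from 8.25 to 8.34 with XAV939 and from 8.26 to 8.31 with both. The sum of the 9 EpiSC markers ran from 13.30 to 13.37 untreated, from 13.35 to 13.38 with CHIR99021, from 13.38 to 13.50 with XAV939 and from 13.38 to 13.39 with both. The 4 muscle markers ran from 7.09 to 7.31 untreated, from 6.97 to 7.22 with CHIR99021, from 6.92 to 7.04 with XAV939 and from 6.92 to 7.18 with both. The 4 trophoblast markers ran from 6.57 to 6.71 untreated, from 6.66 to 6.705 with CHIR99021, from 6.44 to 6.54 with XAV939 and from 6.51 to 6.61 with both. Untreated arrays thus did not overlap those with CHIR99021 in the naive and fibroblast sums, those with XAV939 in the EpiSC, muscle and trophoblast sums, or those with both in the naive and EpiSC sums. Values were summed before the log, so the brightest gene weighs most. The fibroblast sum rests mainly on Thy1, at a mean of 7.54 beside 5.36 for Col1a1. Of the trophoblast markers 0 of 4, and of the muscle markers 1 of 4, averaged above background. The endoderm sum lay between 7.30 and 7.52 on all arrays, with overlap between untreated arrays and each treated group. The part of these shifts in the values of the 9 genes was not tested.

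A list of 11 genes at or near the members' loci, which leaves out many of their direct neighbours, held no called gene. Mab21l2 overlaps Lrba, a gene of vesicle trafficking, on the opposite strand in the RefSeq annotation, and Lrba went from 7.76 ± 0.05 (SD, n = 3) untreated to 7.88 ± 0.09 with CHIR99021 and 8.04 ± 0.03 with both compounds, changes of 0.12 and 0.27 that did not pass (limma adjusted p = 0.595 and 0.06215). Dmpk and Mnat1 are given for their position and were chosen after their values were seen. Dmpk, next to Six5, had -0.17 with CHIR99021 (limma adjusted p = 0.573) and -0.08 with both (adjusted p = 0.668). Mnat1, which overlaps Six4 in that annotation, had 0.10 in each (limma adjusted p = 0.737 and 0.528). In the same annotation Bhmg1, which is not on the list, overlaps Six5, and Elp4 overlaps Pax6. Whether the Mab21l2, Six4, Six5 and Pax6 probes read 1 strand alone was not tested. None of those 11 was called in any of the 6 contrasts, and their median change was -0.01 with CHIR99021 and 0.01 with both.

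**Figure D4:**
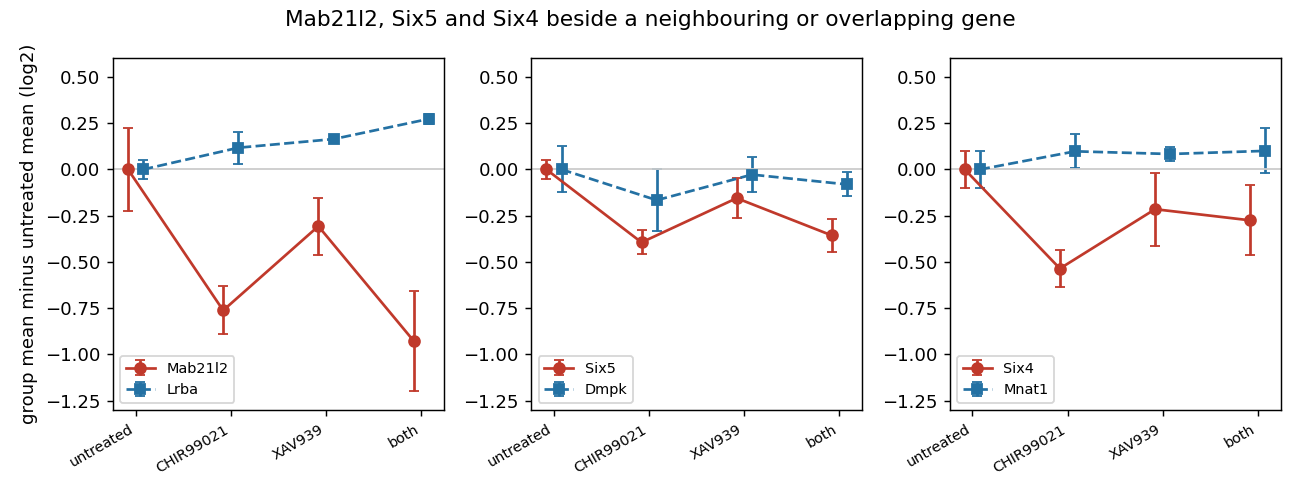
Group means relative to the untreated mean, in log2 units, for Mab21l2 and its host Lrba, Six5 and its neighbour Dmpk, and Six4 and the overlapping Mnat1. Bars are the SD of the 3 arrays of a group. With both compounds Mab21l2 is at -0.93 and Lrba at 0.27.

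The other listed members of the sine oculis, PAX, DACH and MAB21 families gave no call. Of 15 relatives measured, 2 averaged above background and none was called in any of the 6 contrasts, with a median change of -0.02 with CHIR99021 and -0.075 with both compounds. Among them Pax9, a factor of tooth and thymus development, had -0.20 with CHIR99021 (limma adjusted p = 0.346), Dach2, a co-repressor partner of sine oculis proteins, 0.19 (adjusted p = 0.417), and Pax4, of pancreatic endocrine cells, -0.19 with both compounds (adjusted p = 0.172). Of 14 measured eye field and forebrain genes, 4 averaged above background and none was called, with medians of -0.09 with CHIR99021 and -0.14 with both. Otx2, which is active in EpiSCs as well as in the forebrain, had -0.08 with CHIR99021 and -0.18 with both compounds (limma adjusted p = 0.785 and 0.21), and Fezf1 had -0.20 and -0.30 (adjusted p = 0.639 and 0.228).

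Of 15 cranial placode genes, Foxi3 alone was called, and it rose. Foxi3, a forkhead factor of the preplacodal region, went from 10.4 ± 0.13 (SD, n = 3) untreated to 10.9 ± 0.12 with CHIR99021, a change of 0.45 (SE 0.09, limma adjusted p = 0.0383), and had 0.17 with both compounds (adjusted p = 0.318). Gata3 had -0.24 with CHIR99021 and Tfap2c 0.21 (limma adjusted p = 0.446 and 0.456). Of 15 genes described elsewhere as targets of sine oculis or EYA proteins, or substrates of them, none was called in any contrast. Their median change was -0.07 with CHIR99021 and -0.10 with both, beside -0.01 over all genes in each. With CHIR99021, 13 of them had a change below 0, where 51.9% of all genes did. Only 9 of the 15 averaged above background, the list was chosen with earlier results known, and nothing is read from this count. The smallest p belonged to Ccna1, the germline cyclin A, which had -0.30 with CHIR99021 and -0.28 with both compounds (limma adjusted p = 0.0955 and 0.0665) at a mean level of 4.91, below background. Sall1 had -0.30 with CHIR99021 (limma adjusted p = 0.299).

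The genes whose values followed each member most closely were taken by Pearson's r over the 12 arrays, among 11646 genes above background (11647 for Six5). They share the arrays and the group structure, and r is given as a description. For Mab21l2 they were Klhl24 (r = 0.93), 4930429B21Rik (0.93), S1pr5 (0.90), Plet1 (0.89) and Zkscan14 (0.89), and Klhl24 had changes of -0.45 with CHIR99021 and -0.47 with both compounds. For Six4 they were Ptpn6 (0.87), Tagln2 (0.87) and Speg (0.86). For Six5 they were Thnsl1 (0.94), Gcnt2 (0.92) and Mllt10 (0.89). For Eya1 they were Ccn5 (0.95), Celf4 (0.88) and Srrm3 (0.87), and Ccn5 had -0.20 with CHIR99021 and -0.42 with both compounds. No gene was named for more than 1 member.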

How the data were processed

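Total RNA was labelled with biotin by an Affymetrix protocol, 1 sample an array, per the labels. The authors deposited 1 table of log2 expression per probe; the log base is inferred from its range, 2.52 to 14.3. Per the submitters' processing notes the software was Partek; how background was corrected and arrays were normalized is not given in the sources used here. No further normalization was applied (array medians 5.22 to 5.27). Of 35399 probes, 21789 carried a single gene symbol in GEO's platform table, 1621 carried more than 1 and 11989 were unnamed here. Names were updated through the RefSeq table of GRCm38.p6 (91 had no match), and the probe with the highest mean stood for a gene, leaving 19938. Arrays carry no read depth; 3 arrays a group limit the precision.

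Group means were fitted to 12 arrays with limma 3.58.1 in R 4.3.3 (eBayes after lmFit, two-sided, 8 residual and 8.03 prior degrees of freedom), with 6 contrasts and Benjamini-Hochberg adjustment over all genes. The code was tested on simulated data. All members are named. From each list, up to 4 genes with the smallest p and any called gene could be named. Dmpk, Mnat1, Elp4 and Bhmg1 were added for position, and by likeness 5 genes were named for Mab21l2 and 3 for Six4, Six5 and Eya1. Members, lists and tests were chosen with earlier results of these data known. Alternatives tried were median centring, quantile normalization, 2 filters on dim genes, the mean of a gene's probes, fits to the compared groups alone, trend and robust eBayes, array weights, a replicate block and leaving out each array; leaving out the 2 arrays of lowest spread was chosen after seeing the data. Figures used matplotlib 3.10.9 in Python 3.11.15.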

Additional observations from a re-analysis of the deposited data

Results flagged for a closer look

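Six4 was flagged because its mean was lower with XAV939 alone than untreated, and higher with both compounds than with CHIR99021 alone. All 3 XAV939 arrays lay below the untreated mean, a change of -0.215 (SE 0.11). All 3 arrays with both compounds lay above the mean with CHIR99021 alone, a change of 0.26 (SE 0.11). Neither change was called, and limma's test of their difference, 0.48, did not call it. Eya4 met the same rule with uncalled changes of -0.05 and 0.08 (SE 0.08 each), a difference of 0.13 (limma adjusted p = 0.97). Six4 was chosen for falling, and the share of all genes that meet this rule is not given. No opposite movement is therefore read from either gene. Groups of 3 arrays were too small for a check for single arrays far from the others.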

How the results depend on the processing

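With both compounds against untreated, 1 member was called in the fit to the 2 groups alone instead of 3, and 1 without the 2 arrays of lowest spread, where 0 instead of 3 were called with CHIR99021. With both compounds against XAV939, 1 member (Mab21l2) was called instead of 0 with array weights and with the replicate block. Leaving out 1 array gave 0 to 3 members with CHIR99021, 0 to 3 with both compounds and 0 to 2 with both against XAV939. Whether the replicate numbers pair samples across groups is not stated. The correlation of deviations between arrays of 1 number had a median of 0.01 (range -0.25 to 0.20). Between arrays of different numbers the median was -0.01 (range -0.30 to 0.33). The block changed no other count of members.

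The called changes kept their sign in every alternative that tested them. All of them belong to genes chosen for falling on these same arrays, so nothing is read from this. Signs turned for small uncalled changes, those of chosen genes included: Six4 with both against XAV939 ran from -0.17 to 0.02, Six5 with both against CHIR99021 from -0.01 to 0.08 and the Mab21l2 interaction from -0.05 to 0.26. With quantile normalization, both compounds against untreated gave Eya2 0.020, and against CHIR99021 gave Six3 8e-04 and Eya2 0.0015. XAV939 gave Pax6 2e-04 with median centring and 0.021 with array weights, and CHIR99021 gave Eya4 0.010 with array weights. Without the 2 arrays of lowest spread, Eya4 was at 0.062 with CHIR99021, and with XAV939 Six3 was at 0.062, Eya4 at 0.038 and Pax6 at 0.019, while the interaction of Six3 was -0.10. Leaving out 1 array, changes with CHIR99021 ran from -0.0395 to 0.0364 for Eya2 and from -0.066 to 0.0616 for Eya4. Those with XAV939 ran from -0.0178 to 0.0641 for Eya2, from -0.1844 to 0.0849 for Six3, from -0.1019 to 0.0258 for Eya4 and from -0.0798 to 0.0482 for Pax6. Those with both against CHIR99021 ran from -0.0911 to 0.0396 for Six3 and from -0.0743 to 0.0016 for Eya2, and the interaction of Six3 from -0.1237 to 0.1456. The cause was not tested.

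Six3, Six5 and Eya2 were left out by both filters on dim genes, and Eya4 and Pax6 by the one at the median level. Over the alternatives, genes called ranged from 34 to 119 with CHIR99021 (84 as reported), from 10 to 550 with both (225), from 21 to 70 with both against XAV939 (47), from 0 to 10 with both against CHIR99021 (5), from 0 to 8 with XAV939 (0) and from 0 to 1 in the interaction (0).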
